A study of Mus musculus with 8 samples.

Results

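The genes of the elastic fibre and its microfibrils were followed through early reprogramming of mouse embryonic fibroblasts (MEFs). The 10 genes were taken by symbol from the table of all genes: the fibrillins *Fbn1* and *Fbn2*, the microfibril-associated proteins *Mfap2*, *Mfap4* and *Mfap5*, the elastin gene *Eln*, the fibulins *Fbln1*, *Fbln2* and *Fbln5*, and *Emilin1*. They were 10 of 18990 genes in the table. Of these, 9 passed the filter of a mean of at least 1 CPM (counts scaled to library size) over the libraries, as did 13866 genes in all, and *Mfap4* did not.

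Elastic fibres let tissues such as arteries, lung and skin stretch and recoil. Fibrillins polymerise into microfibrils, the small microfibril-associated glycoproteins MFAP2 and MFAP5 bind them, and tropoelastin, the product of *Eln*, is laid down on this scaffold and crosslinked by lysyl oxidases. Fibulins and EMILIN1 sit at the interface of elastin and microfibrils, and the microfibril also holds latent TGF-beta through its binding proteins.

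Ribosomal RNA-depleted total RNA was sequenced from wild-type C57BL/6 MEFs at passage 2. All of these cells carried the same 2 lentiviruses, 1 with the doxycycline-inducible OSKM cassette (*Oct4*, *Sox2*, *Klf4* and *c-Myc*) and 1 with the transactivator rtTA. All were kept in 10% FBS with LIF, 2 ug/mL doxycycline, 3 uM of the GSK3 inhibitor chiron, 0.25 uM of the TGF-beta receptor inhibitor Alk5i and 50 ug/mL ascorbic acid. The 4 groups had received 40 nM of pooled siRNAs against *Ncor1* or *Oct4* and were collected at day 3 or day 6, with 2 replicates each: *siNcor1* day 3, *siOct4* day 3, *siNcor1* day 6 and *siOct4* day 6. Non-targeting control libraries are not analysed here, so every knockdown comparison sets one knockdown against the other. All groups carry the cassette and the TGF-beta receptor inhibitor, each culture mixes cells at different stages, and nothing in the labels says whether replicates came from separate embryos or cultures, so the p-values measure only the spread between these samples.

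The targeted genes were read first. *Ncor1* measured 7.08 and 7.20 log2-cpm in *siNcor1* day 3 and 7.82 and 7.94 in *siOct4* day 3, a difference of 0.74 (SE 0.12, limma adjusted p = 0.0139, and 0.0617 to 0.132 without each day 3 library in turn). At day 6 it measured 7.26 and 7.28 in *siNcor1* and 7.33 and 7.13 in *siOct4*, and the groups overlapped. *Pou5f1*, the gene of OCT4, measured 7.63 and 7.68 in *siNcor1* day 3 against 7.53 and 7.62 in *siOct4* day 3, a difference of -0.08 (limma adjusted p = 0.941). At day 6 it was higher in *siOct4*, at 9.45 and 8.97 against 7.55 and 7.32, a difference of 1.78 (SE 0.16, limma adjusted p = 0.000109). Reads of *Pou5f1* can come from the cassette as well as from the endogenous gene. Earlier libraries are not analysed here, so a reduction before day 3 would not show, and the values do not settle whether the knockdown worked. Both day 3 values of *Pou5f1* in *siOct4* lay just below both in *siNcor1*, but the gene was not called lower at either day. The 4 are therefore called the libraries labelled *siOct4*.

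The libraries held 7735742 to 16445192 reads on genes, so that 3 reads corresponded to 0.174 to 0.380 CPM. Replicates of each group differed by more than sampling noise, with a chi-square per degree of freedom of 9.68 to 22.4. The predicted gene *Gm26917* took 15.5 to 16.6% of reads at day 3 and 20.3 to 29.1% at day 6, highest in the day 6 libraries labelled *siOct4*. The fibroblast origin was checked on 12 markers, whose levels at day 3 were uneven. *Col1a1*, a chain of type I collagen, was the highest at 3617 to 6732 CPM. The lowest were *Lum* at 9.09 to 15.8 CPM, *Twist2* at 7.66 to 11.85 and *S100a4* at 9.05 to 19.4.

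Promoter windows of 250 bases before the RefSeq start site were used for 6 of the 10 genes, *Fbn1*, *Fbln1*, *Fbln2*, *Fbln5*, *Emilin1* and *Mfap2*. The remaining genes were left out of the motif search, which does not show that RefSeq lacks a window for them. A pair that fell with time and a pair that rose in *siNcor1* are shown, since their levels moved apart between day 3 and day 6. Coordinates are of GRCm38.p6, letters run 5′ to 3′ on the strand of the gene, and capitals mark a motif found by searching both strands.
Fbn1 (chr2:125506439-125506688, minus strand): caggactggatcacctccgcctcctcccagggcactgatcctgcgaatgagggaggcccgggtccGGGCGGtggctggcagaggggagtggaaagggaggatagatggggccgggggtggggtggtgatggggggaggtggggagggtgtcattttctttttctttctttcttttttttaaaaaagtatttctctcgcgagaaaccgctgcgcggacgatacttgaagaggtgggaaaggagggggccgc
Fbln5 (chr12:101819120-101819369, minus strand): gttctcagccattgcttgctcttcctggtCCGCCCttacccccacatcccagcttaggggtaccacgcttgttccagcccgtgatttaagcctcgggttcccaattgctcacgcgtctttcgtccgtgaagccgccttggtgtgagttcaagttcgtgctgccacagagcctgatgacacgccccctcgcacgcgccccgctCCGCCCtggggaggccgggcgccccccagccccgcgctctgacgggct
Fbln1 (chr15:85205699-85205948, plus strand): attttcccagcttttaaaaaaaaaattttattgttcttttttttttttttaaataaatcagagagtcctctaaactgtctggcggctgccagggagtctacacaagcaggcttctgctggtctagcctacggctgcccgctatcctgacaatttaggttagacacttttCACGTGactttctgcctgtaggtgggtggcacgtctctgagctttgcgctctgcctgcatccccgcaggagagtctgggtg
Mfap2 (chr4:141010174-141010423, plus strand): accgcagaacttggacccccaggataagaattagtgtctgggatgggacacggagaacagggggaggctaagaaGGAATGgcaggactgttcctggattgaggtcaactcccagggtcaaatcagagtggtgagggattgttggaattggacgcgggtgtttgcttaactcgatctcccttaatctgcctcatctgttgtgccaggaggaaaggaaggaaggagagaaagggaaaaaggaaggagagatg

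The motifs searched were the TATA box TATAAA, the GC box GGGCGG, the AP-1 site TGANTCA, the TEAD site GGAATG, the E-box CACGTG, the octamer ATGCAAAT and the CArG box, none of which overlapped another in these windows. The *Fbn1* window held a GC box 185 bases before the start site, and that of *Fbln5* held 2 on the other strand, at 221 and 48 bases. A GC box also stood in the *Fbln2* window, and 32.7% of all 32851 promoter windows of that length held at least 1. The *Fbln1* window held an E-box, found in 6.02% of windows, and the *Mfap2* window a TEAD site, found in 12.6%. None of the 7 motifs was found in the *Emilin1* window. No TATA box, AP-1 site, octamer or CArG box was found in the 6 windows, and over all windows their shares were 12.4%, 6.75%, 1.6% and 1.47%. The matches are letters in a window and were not measured as binding. The *Fbn1* window lies 1555 bases from the start of the gene in the GENCODE annotation.

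Values below are log2-cpm as deposited, and differences are in log2 units with the standard error (SE) from limma, with p-values adjusted over all 13866 genes tested. The fibrillin *Fbn1* (chr2:125300594-125507993) supplies the main fibrillin of adult microfibrils. It measured 9.35 and 9.53 in *siNcor1* day 3, 9.41 and 9.73 in the day 3 libraries labelled *siOct4*, 8.38 and 8.54 in *siNcor1* day 6, and 7.49 and 7.82 in the day 6 libraries labelled *siOct4*. The day 3 groups overlapped, and both day 6 groups lay below them, the libraries labelled *siOct4* lowest. The fibrillin of developing tissues, *Fbn2* (chr18:58008623-58210487), measured 7.77 and 8.14, then 7.96 and 8.20, then 7.89 and 7.69, and 6.76 and 6.94, in the same order of groups. For *Fbn2* the day 3 libraries labelled *siOct4* and the *siNcor1* day 6 libraries each overlapped *siNcor1* day 3, and the day 6 libraries labelled *siOct4* stood apart below the rest. Exons of *Fbn1* overlap *Gm9913* and those of *Fbn2* overlap *Gm26507*, both on the opposite strand, and as the use of strand in counting is not given in the sources used here, their reads cannot be told apart.

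*Mfap2* (chr4:141010418-141015984), which encodes the microfibril glycoprotein MAGP-1, went the other way in *siNcor1*. It measured 3.49 and 3.61 in *siNcor1* day 3 and 3.80 and 3.73 in the day 3 libraries labelled *siOct4*. At day 6 it measured 4.51 and 4.48 in *siNcor1* and 3.72 and 3.58 in the libraries labelled *siOct4*. Both *siNcor1* day 6 libraries were above every other library. Its paralogue *Mfap5* (chr6:122505845-122529290), encoding MAGP-2, measured 2.70 and 2.47, then 3.71 and 3.30, then 2.06 and 1.499, and 1.42 and 0.66, in the order *siNcor1* day 3, labelled *siOct4* day 3, *siNcor1* day 6 and labelled *siOct4* day 6. *Mfap5* was therefore highest at day 3 in the libraries labelled *siOct4* and lowest at day 6 in the same knockdown, on 17 to 191 reads per library. *Mfap4* (chr11:61485431-61488900), which encodes a fibrinogen-domain protein of the microfibril, had 0 to 13 reads per library, overlaps *Mapk7* on the opposite strand, and was not tested.

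*Eln* (chr5:134702593-134747323) was scarcely expressed, with 2 to 30 reads per library. It measured 0.00 and 0.91 in *siNcor1* day 3, -0.30 and -1.36 in the day 3 libraries labelled *siOct4*, 1.14 and 1.41 in *siNcor1* day 6, and 0.12 and 0.58 in the day 6 libraries labelled *siOct4*. Within each knockdown the day 6 libraries were above the day 3 libraries, and within each day the libraries labelled *siOct4* were below *siNcor1*. An antisense gene, *Gm30003*, overlaps its exons on the opposite strand.

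Among the fibulins, *Fbln5* (chr12:101746565-101819055) encodes a protein that tethers tropoelastin to microfibrils and is needed for elastic fibre assembly. It measured 6.07 and 5.93 in *siNcor1* day 3 and 6.44 and 6.40 in the day 3 libraries labelled *siOct4*, then 4.44 and 4.41 in *siNcor1* day 6 and 2.74 and 3.22 in the day 6 libraries labelled *siOct4*. No 2 groups of *Fbln5* overlapped. *Fbln2* (chr6:91212455-91272540), a fibulin of vessel walls and basement membranes that binds fibrillin, measured 9.15 and 8.85, then 9.67 and 9.88, then 7.86 and 8.04, and 7.33 and 7.33, in that order of groups. The order of the 4 groups was the same for *Fbln2* as for *Fbln5*, again with no overlap.

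*Fbln1* (chr15:85205949-85286535), which encodes a fibulin bound to elastin and fibronectin, followed *Mfap2* rather than the other fibulins. It measured 5.87 and 5.66 in *siNcor1* day 3, 5.98 and 5.99 in the day 3 libraries labelled *siOct4*, 6.77 and 6.71 in *siNcor1* day 6, and 6.11 and 5.97 in the day 6 libraries labelled *siOct4*. Both *siNcor1* day 6 libraries stood above every other library. *Emilin1* (chr5:30913402-30921277), whose product lies between elastin and microfibrils and restrains TGF-beta processing, measured 6.35 and 6.15, then 6.63 and 6.84, then 6.58 and 6.46, and 5.82 and 5.71. Both day 6 libraries labelled *siOct4* lay below every other library for *Emilin1*.

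**Figure D1:**
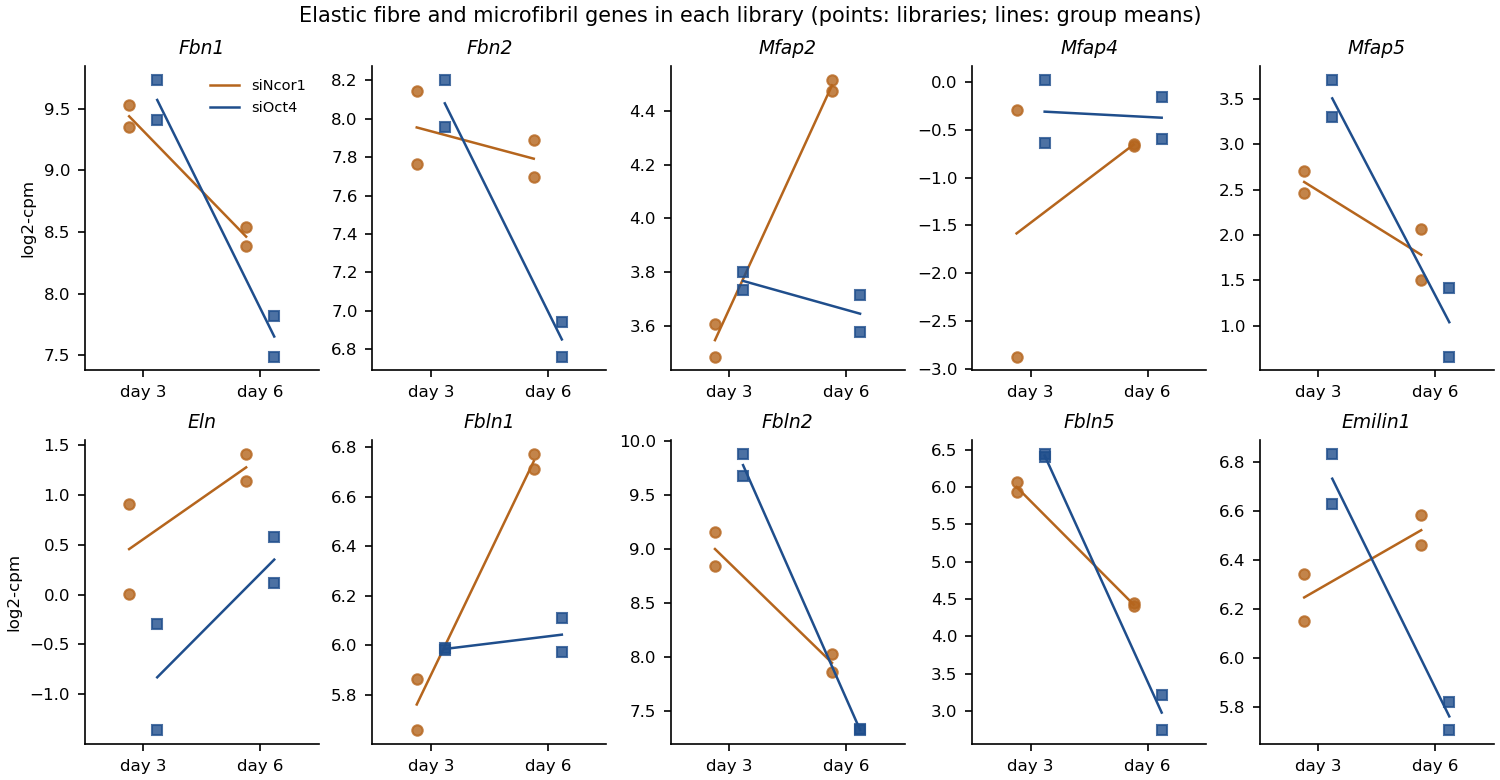
Level of each of the 10 genes in log2-cpm (vertical axis, scale differing by panel) at day 3 and day 6 in siNcor1 (circles) and in the libraries labelled siOct4 (squares). Each point is 1 library and lines join the means of 2; *Fbln5* falls to 2.74 and 3.22 in the day 6 libraries labelled siOct4, while *Mfap2* and *Fbln1* are highest in siNcor1 day 6.

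Levels between genes were compared per exon length, as CPM per kilobase of exon (RPKM). *Fbln2* and *Fbn1* ranked first and second in all 4 groups. In *siNcor1* day 3 *Fbln2* stood at 72.3 to 89.4 RPKM and *Fbn1* at 53.7 to 60.9, followed by *Fbn2*, *Emilin1*, *Fbln1*, *Mfap2*, *Fbln5* and *Mfap5*, with *Mfap2* and *Fbln5* overlapping. In the day 3 libraries labelled *siOct4* *Fbln2* reached 128 to 148 RPKM and *Fbn1* 56.1 to 70.1, and *Emilin1* and *Fbn2* overlapped next in the order. *Eln* stayed at or below 0.311 RPKM and *Mfap4* at or below 0.458 in every library.

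By day 6 the order had changed below the leading genes. In *siNcor1* day 6 *Fbln1* stood next after them at 24.0 to 25.0 RPKM, above *Emilin1* at 17.8 to 19.4, *Mfap2* at 18.3 to 18.8 and *Fbn2* at 15.7 to 17.9, while *Fbln5* had dropped to 3.05 to 3.13. *Emilin1* and *Mfap2* overlapped there. In the day 6 libraries labelled *siOct4* *Fbln2* stood at 25.2 to 25.3 RPKM, and *Fbn1*, at 14.8 to 18.6, overlapped *Fbln1* at 14.4 to 15.8. *Fbln5* lay at 0.948 to 1.33 RPKM in that group.

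As a share of the summed RPKM of the 10 genes, *Fbln1* made up 4.78 to 6.33% over the 4 day 3 libraries and 15.8 to 17.9% over the 4 day 6 libraries. The share of *Mfap2* was 3.58 to 4.96% at day 3 and 10.8 to 12.5% at day 6. *Fbln2* made up 36.0 to 48.7% at day 3 and 24.4 to 28.6% at day 6. *Fbln5* went from 4.01 to 4.74% at day 3 to 1.07 to 2.09% at day 6. The make-up thus differed between days in both knockdowns, while the summed level of the 10 genes also differed between knockdowns. Their summed CPM was 1664 and 1682 in *siNcor1* day 3, 2021 and 2372 in the day 3 libraries labelled *siOct4*, 1059 and 1084 in *siNcor1* day 6, and 598 and 647 in the day 6 libraries labelled *siOct4*.

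**Figure D2:**
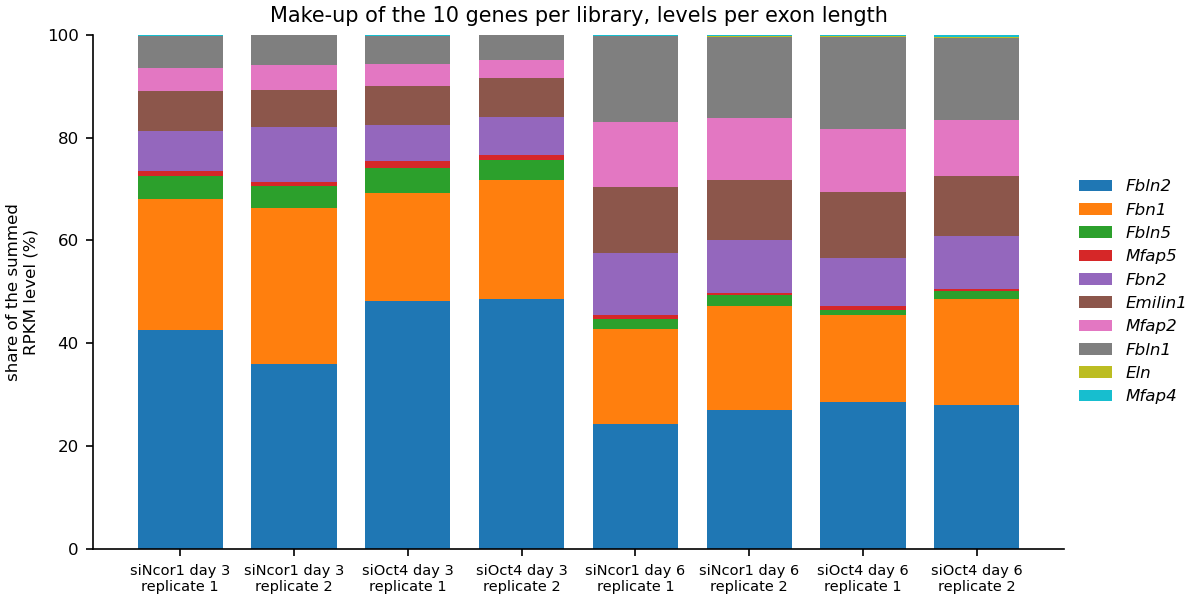
Share of the summed RPKM level of the 10 genes taken by each gene (vertical axis, %, stacked from 0) in each library. The 4 day 3 libraries on the left have large *Fbln2* and *Fbn1* segments, and the 4 day 6 libraries on the right have larger *Fbln1*, *Mfap2* and *Emilin1* segments in both knockdowns.

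Ratios of related genes within a library do not depend on its total, and 4 were computed, chosen after the levels had been seen. *Fbn1* over *Fbn2* per length was 2.85 to 3.26 in the day 3 libraries and 1.54 to 2.00 in the day 6 libraries. *Mfap2* over *Mfap5* was 3.17 to 6.63 at day 3 and 15.2 to 24.4 at day 6. *Fbln1* over *Fbln2* was 0.0982 to 0.159 at day 3 and 0.571 to 0.685 at day 6. *Fbln1* over *Fbln5* was 1.15 to 1.37 at day 3, and at day 6 it was 7.86 and 7.99 in *siNcor1* and 10.8 and 16.7 in the libraries labelled *siOct4*. For each ratio no day 6 library overlapped a day 3 library in either knockdown, which is given as a description. An exact test over 36 arrangements of the days within knockdowns gave p = 0.0556 for each ratio. That is the smallest value it can reach, so it could not pass 0.05.

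The day 3 comparison sets the knockdowns side by side early in reprogramming. *Fbln2* was higher in the libraries labelled *siOct4*, by 0.77 (SE 0.14, limma adjusted p = 0.0231), which is 1.71-fold. It was the only 1 of the 9 genes called, against 1.07% of all genes tested called in either direction, 0.375% higher and 0.692% lower. Differences were above 0 for 8 of the 9, with a median of 0.22 beside -0.02 over all genes tested. *Mfap5* differed by 0.92 (95% interval 0.26 to 1.58, limma adjusted p = 0.226) and *Emilin1* by 0.49 (0.21 to 0.76, limma adjusted p = 0.112). The libraries labelled *siOct4* were both above both *siNcor1* libraries for 6 of the 9, where 20.7% of all genes were, and both below for 1, where 22.7% of all genes were. The exception in sign was *Eln*, at -1.28 (95% interval -2.29 to -0.28, limma adjusted p = 0.28) on its few reads. The *Fbln2* call was lost without either *siNcor1* library (adjusted p = 0.0654 and 0.321), without either library labelled *siOct4* (0.0657 and 0.219), and without a trend of the variance (0.115). The difference stayed at 0.62 to 0.93 when a library was left out. A fit without 1 library leaves an arm of 1, which is assumed to vary like the other groups.

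At day 6 *Fbn1*, *Fbn2*, *Fbln1*, *Fbln2*, *Fbln5*, *Emilin1* and *Mfap2* were lower in the libraries labelled *siOct4*, so 7 of the 9 passed the test and all in the same direction, against 18.6% of all genes called lower and 30.7% called in either direction. The largest difference was that of *Fbln5*, at -1.45 (SE 0.16, limma adjusted p = 0.000291), which is 2.73-fold lower. *Fbn2* differed by -0.94 (SE 0.15, limma adjusted p = 0.00135) and *Fbn1* by -0.81 (SE 0.16, limma adjusted p = 0.00328), so both fibrillins were lower. *Mfap2* differed by -0.85, *Emilin1* by -0.76, *Fbln1* by -0.70 and *Fbln2* by -0.62, with limma adjusted p-values of 0.00232, 0.00162, 0.0019 and 0.00725. *Eln* at -0.92 (95% interval -1.93 to 0.08, adjusted p = 0.149) and *Mfap5* at -0.74 (-1.40 to -0.08, adjusted p = 0.0824) did not pass the test. Both libraries labelled *siOct4* lay below both *siNcor1* libraries for all 9 tested genes, as they did for 34.8% of all genes (29.9% lay above), and the median was -0.81 beside -0.03. In RNA of whole cultures, fewer cells of a type cannot be told apart from less RNA of a gene per cell. The *Fbln2* call was lost without *siNcor1* day 6 replicate 2 (adjusted p = 0.0898).

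Markers of the cells that make these fibres differed in this comparison and over time. The summed level of the 12 fibroblast markers was 8583 to 8799 CPM in *siNcor1* day 3 and 11370 to 12870 in the day 3 libraries labelled *siOct4*. It was then 6498 to 6725 in *siNcor1* day 6 and 3599 to 3812 in the day 6 libraries labelled *siOct4*. Of the 12, 10 were lower at day 6 in the libraries labelled *siOct4*, where 18.6% of all genes were. The sum is dominated by *Col1a1*, which went from 3812 and 3617 CPM at day 3 to 1595 and 1756 CPM at day 6 in *siNcor1*. Counted singly, however, 7 of the 12 rose over time in *siNcor1* and 3 fell (median 0.66), where 13.8% and 20.9% of all genes did. In the libraries labelled *siOct4* 2 of the 12 rose over time and 6 fell (median -0.51), where 22.2% and 30.5% of all genes did. The 6 smooth muscle markers summed to 1321 to 1951, 2635 to 2913, 381 to 418 and 155 to 162 CPM in the same order. Of these 6, 5 were lower at day 6 in the libraries labelled *siOct4*, where 18.6% of all genes were. Most of the smooth muscle sum came from *Acta2*, at 99.9 to 2219 CPM. The 6 epithelial and pluripotency markers summed to 59.7 to 62.2, 16.4 to 20.8, 648 to 679 and 298 to 329 CPM. Endothelial markers summed to at most 44.4 CPM, with *Emcn* at 0 in the 4 day 6 libraries, immune markers to at most 12.8 CPM and chondrocyte markers to at most 57.7 CPM. Nearly all of the endothelial sum was *Tek*, at 15.8 to 43.2 CPM, while *Pecam1* reached at most 0.757 CPM and *Cdh5* at most 0.42. The part of these cell types and of the share of *Gm26917* in the results on the elastic fibre genes was not tested, and with library totals that leave out *Gm26917* the number of these genes called lower at day 6 was 7 of the 9.

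Over time in *siNcor1* the genes split. *Fbln1* rose by 0.98 (SE 0.12, limma adjusted p = 0.000167) and *Mfap2* by 0.95 (SE 0.15, limma adjusted p = 0.000847), both close to a doubling at 1.98-fold and 1.93-fold. *Fbln5* fell by 1.57 (SE 0.16, limma adjusted p = 5.04e-05), *Fbln2* by 1.05 (SE 0.14, limma adjusted p = 0.000276) and *Fbn1* by 0.98 (SE 0.16, limma adjusted p = 0.000844). Thus 2 of the 9 rose and 3 fell, where 13.8% of all genes rose and 20.9% fell, and where 7 of the 12 fibroblast markers rose. *Fbn2* at -0.16 (95% interval -0.49 to 0.17), *Emilin1* at 0.27 (0.00 to 0.55), *Eln* at 0.82 (-0.19 to 1.82) and *Mfap5* at -0.80 (-1.46 to -0.14, adjusted p = 0.0579) did not pass the test. *Mfap5* did pass in 8 of the alternatives, voom and quantile normalization among them (adjusted p = 0.0165 to 0.324 over all alternatives). Both day 6 libraries lay above both day 3 libraries for 4 of the 9 and below for 4, where 31.4% and 41.7% of all genes did. The median of the 9 was -0.16 beside -0.07 over all genes tested.

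Over time in the libraries labelled *siOct4* most of the genes fell. *Fbln5* fell by 3.44 (SE 0.16, limma adjusted p = 7.77e-08), a 10.9-fold drop. *Mfap5* fell by 2.47 (SE 0.30), *Fbln2* by 2.45 (SE 0.14), *Fbn1* by 1.92 (SE 0.16), *Fbn2* by 1.23 (SE 0.15) and *Emilin1* by 0.97 (SE 0.13), each with a limma adjusted p of 7.48e-05 or less. That makes 6 of the 9, against 30.5% of all genes that fell and 52.7% called in either direction. *Eln* rose by 1.18 (SE 0.46, limma adjusted p = 0.0482), where 22.2% of all genes rose, but its call was lost with 6 of the 10 other settings and without 7 of the 8 single libraries, all but the library labelled *siOct4* day 3 replicate 1 (adjusted p = 0.0502 to 0.313). *Fbln1* at 0.06 (95% interval -0.21 to 0.32) and *Mfap2* at -0.12 (-0.45 to 0.21), the pair that rose in *siNcor1*, did not pass the test. Both day 6 libraries lay below both day 3 libraries for 7 of the 9 and above for 1, where 42.1% and 32.7% of all genes did. The median was -1.23 beside -0.08.

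The difference between the knockdowns at day 6 was set against that at day 3 in a single interaction term. It was below 0 for 8 of the 9 genes, and all 8 passed the test, against 12.9% of all genes called lower and 20.7% called in either direction. The change was -1.87 for *Fbln5* (SE 0.23, limma adjusted p = 0.00064), -1.67 for *Mfap5* (SE 0.43, limma adjusted p = 0.0193), -1.39 for *Fbln2* (SE 0.20, limma adjusted p = 0.00119) and -1.25 for *Emilin1* (SE 0.18, limma adjusted p = 0.00125). *Mfap2* and *Fbn2* both changed by -1.07, *Fbn1* by -0.94 and *Fbln1* by -0.93, with limma adjusted p-values of 0.00617, 0.00607, 0.0131 and 0.00384. *Eln* was the exception, at 0.36 (95% interval -1.06 to 1.78, adjusted p = 0.73). The median was -1.07 beside 0.01 over all genes tested. The knockdown and time comparisons share their libraries, so they are the same 8 libraries read in different ways. The call on *Fbn1* was lost without *siNcor1* day 3 replicate 1 (adjusted p = 0.0531), *siNcor1* day 6 replicate 2 (0.0705) or the library labelled *siOct4* day 3 replicate 2 (0.0608), and that on *Mfap5* without *siNcor1* day 3 replicate 2 (0.0993), *siNcor1* day 6 replicate 1 (0.0708) or the library labelled *siOct4* day 3 replicate 1 (0.0687).

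**Figure D3:**
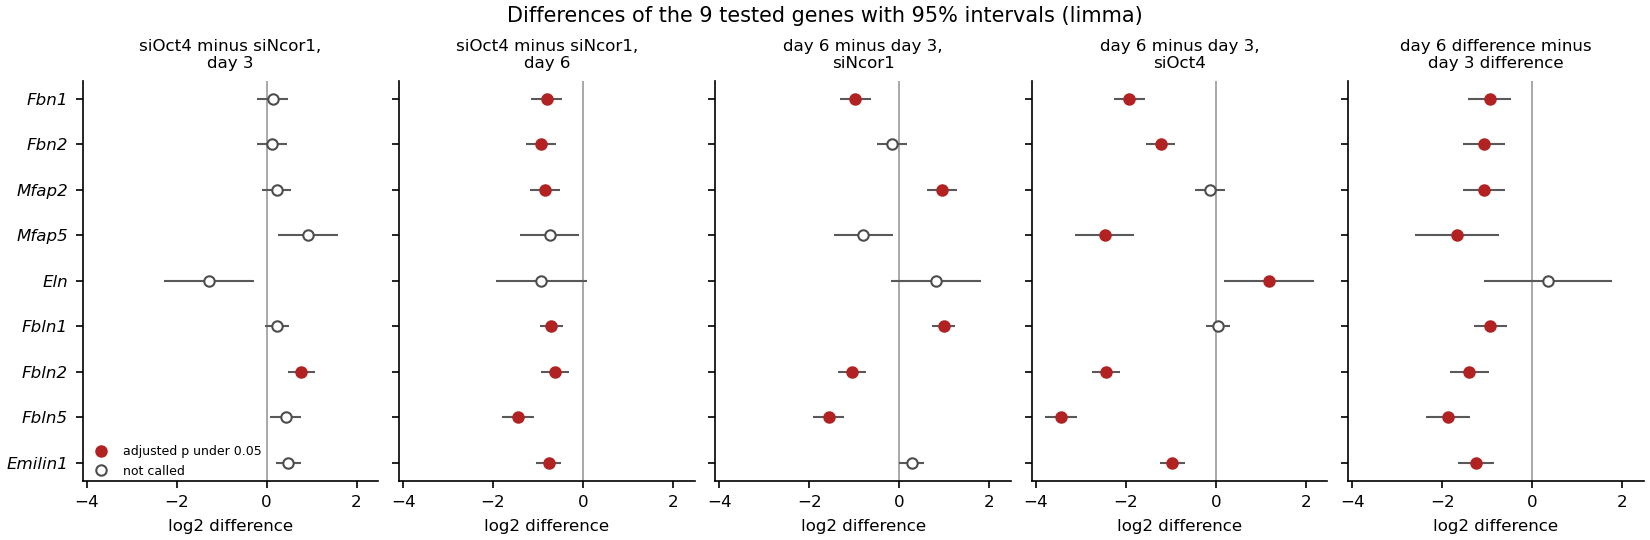
Log2 difference of each of the 9 tested genes (points) with its 95% interval (lines) in 5 comparisons, filled where the limma adjusted p is under 0.05. All 9 lie below 0 at day 6, and 8 do so in the interaction term, while *Fbln1* and *Mfap2* are above 0 over time in siNcor1.

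The genes whose log2-cpm was most like that of each gene over the 8 libraries are given as a description, since the libraries fall into 4 groups. *Fbln2* was closest to *Lox*, the lysyl oxidase that crosslinks elastin (Pearson r = 0.997), among 9222 genes compared. *Fbln5* was closest to *Wdr1*, an actin-disassembly factor (r = 0.999), and *Fbn1* to *Sptan1*, a spectrin (r = 0.998). *Fbln1* had *Mmp2*, a gelatinase, among its 3 nearest (r = 0.985), beside *Fabp3* and *Inhbb*. *Fbn2* was nearest to *Fat4*, a giant protocadherin (r = 0.988), *Emilin1* to the zinc transporter *Slc39a13* (r = 0.989), *Mfap2* to the phosphatase *Dusp9* (r = 0.993), *Mfap5* to the tubulin *Tubb6* (r = 0.994) and *Eln* to *Zmym1* (r = 0.960).

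Other genes of elastic fibre biology were taken from 8 lists with 60 genes, of which 54 were in the table and 51 were tested. At day 3 the median of the 51 was 0.28 beside -0.02 over all genes tested. Limma called 0 of the 51 lower in the libraries labelled *siOct4*, where 0.692% of all genes were. At an unadjusted p under 0.05, 0 were lower, and voom called 0 lower. Limma called 4 of the 51 higher, where 0.375% of all genes were. These were *Lox*, by 1.02 (adjusted p = 0.0049), the fibronectin receptor subunit *Itga5* by 0.88 (0.0201), the latent TGF-beta binding protein *Ltbp2* by 0.71 (0.0296), and the endoplasmic reticulum prolyl isomerase *Fkbp10*, which assists tropoelastin and collagen folding, by 0.55 (0.038). None of the 4 calls was kept without *siNcor1* day 3 replicate 1 (adjusted p = 0.0654 to 0.127) or replicate 2 (0.0827 to 0.4). At day 6, 36 of the 51 were lower, where 18.6% of all genes were, and 0 higher, where 12.1% were, by limma (1 was higher at an unadjusted p under 0.05 and 0 with voom), with a median of -0.73, and 48 of the 51 differences were below 0. The 3 above 0 did not pass the test: *Adamts17* at 0.88, the proprotein convertase *Pcsk6* at 0.36 and the integrin subunit *Itgb3* at 0.20. *Adamts17* had 9 to 30 reads per library. *Pcsk6* alone was called higher, at 0.54 (adjusted p = 0.018), without the library labelled *siOct4* day 6 replicate 2, and stood at 0.17 without replicate 1.

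The latent TGF-beta binding proteins, which dock on fibrillin, and the TGF-beta ligands were lower at day 6 in the libraries labelled *siOct4* for 6 of 7 genes. Over all genes tested 18.6% were called lower in this comparison, the share to set beside each list count here. *Tgfb3* differed by -1.13 (SE 0.17, limma adjusted p = 0.000959), *Tgfb2* by -1.11 (SE 0.14, limma adjusted p = 0.000458) and *Ltbp3* by -1.04 (SE 0.13, limma adjusted p = 0.00044). *Ltbp4*, which guides FBLN5 onto microfibrils, was the exception at -0.09 (adjusted p = 0.767). Of 7 other fibulins, emilins and multimerins 5 were lower, led by *Fbln7* at -1.30, *Efemp1* (fibulin-3) at -1.28 and the hemicentin *Hmcn1* at -1.12. *Fbln7* had only 9 to 46 reads per library and *Hmcn1* 14 to 605, while *Efemp1* had 486 to 2669. The *Fbln7* call was lost without *siNcor1* day 6 replicate 1 (adjusted p = 0.0872) and that of *Hmcn1* without *siNcor1* day 6 replicate 2 (0.0564). The ADAMTS-like and ADAMTS proteins of microfibrils had 4 of 8 lower, among them *Adamtsl3* at -1.15, *Adamtsl1* at -0.85 and *Adamtsl5* at -0.73. The *Adamtsl3* call was lost in 10 of the alternatives, voom (adjusted p = 0.176) and 5 single libraries left out among them: both *siNcor1* day 3 libraries (0.0646 and 0.0632), both *siNcor1* day 6 libraries (0.0685 and 0.233) and the library labelled *siOct4* day 6 replicate 1 (0.227). Its difference ranged from -1.68 to -0.63 over single libraries left out, on 4 to 159 reads per library. The *Adamtsl5* call was lost without *siNcor1* day 6 replicate 1 (0.0698) or replicate 2 (0.109).

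Of the 6 lysyl oxidase and copper supply genes 5 were lower at day 6 in the libraries labelled *siOct4*, where 18.6% of all genes were. *Loxl2* stood at -0.91, *Loxl1* at -0.90 and *Lox* at -0.90, and the copper transporter *Atp7a* at -0.34 (adjusted p = 0.203) did not pass. The same share of all genes applies to the list counts that follow. Of 5 proteoglycans that bind fibrillin or tropoelastin 4 were lower, namely *Bgn* at -0.91, *Fmod* at -0.89, *Hspg2* at -0.79 and *Vcan* at -0.62. The *Hspg2* call was lost without *siNcor1* day 6 replicate 1 (adjusted p = 0.0623) or replicate 2 (0.0755), or the library labelled *siOct4* day 6 replicate 2 (0.052). The fifth was *Dcn*, at -0.57 (adjusted p = 0.117), which is also in the fibroblast marker list. *Dcn* was called lower, at -1.06 (adjusted p = 0.00153), without the library labelled *siOct4* day 6 replicate 2, and stood at -0.08 (0.777) without replicate 1. *Fkbp10* at -0.75 and the convertase *Furin*, which trims fibrillin, at -0.74 were the 2 of 4 folding and processing genes called, while *Pcsk5* at -0.31 (adjusted p = 0.257) and *Pcsk6* did not pass. Of 10 integrin and elastin receptor genes 6 were lower, with *Itgb8* at -1.04, *Itga8* at -0.93 and *Itga5* at -0.80. Without *siNcor1* day 6 replicate 2 the calls on *Itgb8* (adjusted p = 0.123) and *Itga8* (0.0918) were lost, as was that on *Itgb8* without the library labelled *siOct4* day 6 replicate 1 (0.0529).

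**Figure D4:**
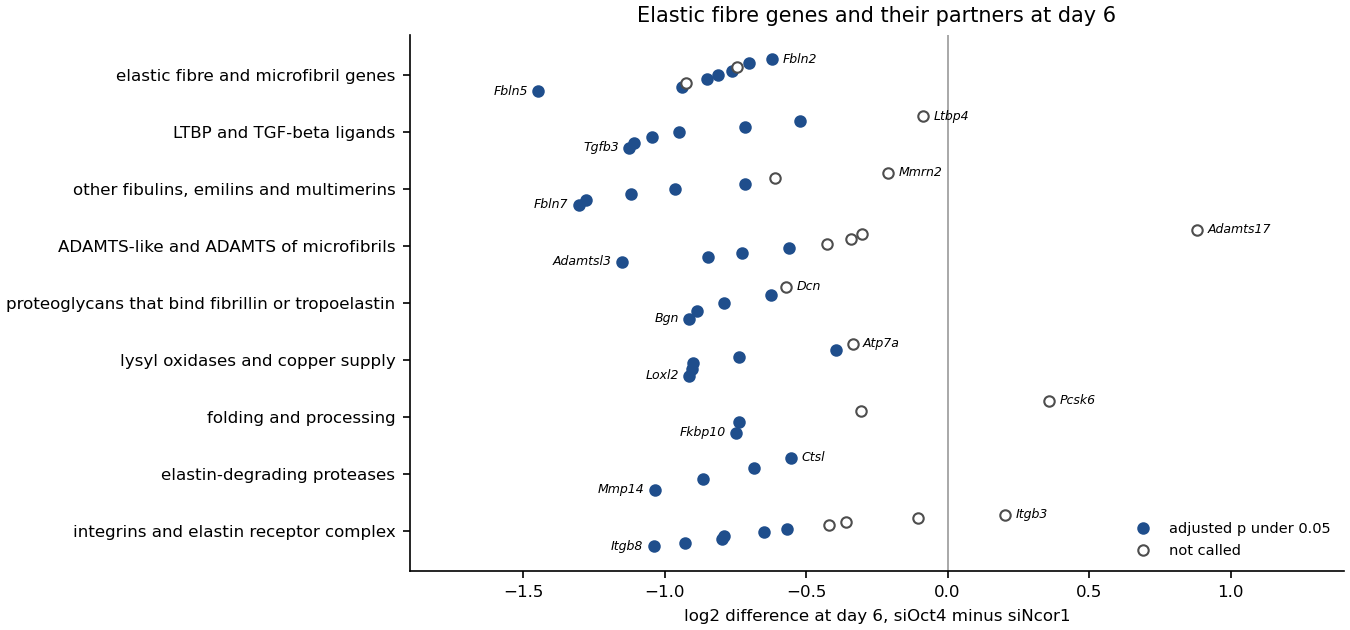
Log2 difference at day 6, libraries labelled siOct4 minus siNcor1, for the 9 tested elastic fibre and microfibril genes and the 51 tested genes of the 8 other lists (rows), each point 1 gene, filled where the limma adjusted p is under 0.05. The 3 points above 0, *Adamts17*, *Pcsk6* and *Itgb3*, are open, and the lowest point is *Fbln5* at -1.45.

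All 4 elastin-degrading proteases that were tested rose with time in *siNcor1*, where 13.8% of all genes and 7 of the 12 fibroblast markers rose, whose part in this was not tested. *Mmp2* rose by 1.24, the cathepsin *Ctsk* by 1.21, *Ctsl* by 0.89 and *Mmp14*, which activates MMP2, by 0.53, with limma adjusted p-values of 3.05e-05, 0.00114, 0.00209 and 0.00666. The rise of *Mmp14* lost its call without *siNcor1* day 3 replicate 2 (adjusted p = 0.0756) or *siNcor1* day 6 replicate 2 (0.0523). Each of the 4 proteases was lower at day 6 in the libraries labelled *siOct4*, where 18.6% of all genes were called lower. *Mmp14* differed by -1.04, *Mmp2* by -0.86, *Ctsk* by -0.68 and *Ctsl* by -0.55. The *Ctsk* call at day 6 was lost without *siNcor1* day 6 replicate 1 (adjusted p = 0.142) or replicate 2 (0.0785), or the library labelled *siOct4* day 6 replicate 1 (0.148). Over all 51 genes, 13 rose and 14 fell with time in *siNcor1*, where 13.8% and 20.9% of all genes did. In the libraries labelled *siOct4* 5 rose and 36 fell, where 22.2% and 30.5% of all genes did. *Lox* fell in both, by 1.38 in *siNcor1* and by 3.30 in the libraries labelled *siOct4*, and *Dcn*, chosen after its values were seen, rose in both, by 2.51 and 1.59. The interaction term was called lower by limma for 34 of the 51, where 12.9% of all genes were. It was called higher for 0, where 7.77% of all genes were, and also for 0 at an unadjusted p under 0.05 and with voom.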

How the data were processed

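The 10 genes and the gene lists were chosen with earlier results of these data known. Ribosomal RNA-depleted RNA-seq of 8 libraries (4 groups of 2) was analysed. The authors aligned reads to mm10 with STAR (2.5.2b) and deposited log2-cpm values made with edgeR (3.20.9), per the submitters' processing notes and the methods. The read counter, its annotation and its use of strand are not given in the sources used here. Subtracting the constant added before the logarithm (0.136 CPM) and dividing by the value of 1 read gave whole reads for 100% of values (tolerance 0.1) and a depth of 7735742 to 16445192 reads. Counting error only is covered by the 3-read limits.

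Genes averaging 1 CPM or more were tested on the deposited log2-cpm in R 4.3.3 with limma 3.58.1, using 1 mean per group, all 8 libraries, a trend of the variance and Benjamini-Hochberg adjustment at 0.05. The fit was tested on simulated data. RPKM used the union of exons in GENCODE M21 (GRCm38), which matched 18969 of 18990 Ensembl gene identifiers. Alternatives were no trend, median centring, quantile normalization, totals without *Gm26917*, plain totals, no filter, a 10 CPM filter, a 1 CPM pseudocount, voom, a replicate block, only the groups compared, and leaving out each library. Named were the 10 genes, up to 3 called genes per list with the largest day 6 difference, list genes whose call differed, the nearest genes by correlation, *Ncor1* and *Pou5f1*. Any others were chosen after their values were seen.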

Additional observations from a re-analysis of the deposited data

Results flagged for a closer look

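By the interaction term of limma 8 of the 9 tested genes were called lower, against 12.9% of all genes called lower and 20.7% called in either direction. For these 8 the difference between the libraries labelled *siOct4* and *siNcor1* was not the same at day 6 as at day 3. It changed by -1.87 for *Fbln5* (limma adjusted p = 0.00064), by -1.67 for *Mfap5* (0.0193), by -1.39 for *Fbln2* (0.00119), by -1.25 for *Emilin1* (0.00125), by -1.07 for *Mfap2* (0.00617), by -1.07 for *Fbn2* (0.00607), by -0.94 for *Fbn1* (0.0131) and by -0.93 for *Fbln1* (0.00384). *Fbln2* is the gene whose separate differences passed the test on both days, at 0.77 and -0.62. Its day 3 call was lost without a trend of the variance (limma adjusted p = 0.115). It was also lost without any 1 of the day 3 libraries, where the difference was 0.62 to 0.93. The day 6 call of *Fbln2* was lost without *siNcor1* day 6 replicate 2, at a difference of -0.53. The groups hold 2 libraries each, so no single library could be tested for standing apart. When each library was left out, the change ranged from -1.11 to -0.78 for *Fbn1* and from -2.04 to -1.29 for *Mfap5*. Both calls were lost in some of these fits.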

How the results depend on the processing

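Of 188 recomputed counts 169 were within 1.5 times the reported count. The day 3 counts moved most: 0 of the 9 genes were called without a trend of the variance (0 to 2 when each library was left out), and of the 51 other genes 1 was called without a trend, 7 with median centring, 2 with plain totals and 7 with only the groups compared (0 to 8 when each library was left out). Over all genes the day 3 calls numbered 148, against 43 without a trend, 81 at 10 CPM and 3 without either *siNcor1* day 3 library (up to 375 without the library labelled *siOct4* day 6 replicate 1). Leaving out 1 library gave 1398 to 4669 calls at day 6, 2360 to 5954 over time in *siNcor1*, 5397 to 7374 over time in the libraries labelled *siOct4* and 1009 to 3667 for the interaction. The day 6 count of the 9 genes was then 6 to 8, and 24 to 38 for the 51 (1 of them higher, *Pcsk6*, without the library labelled *siOct4* day 6 replicate 2). Differences near 0 changed sign: *Fbn2* over time in *siNcor1* was 0.0008 with quantile normalization (-0.35 to 0.0257 over single libraries left out), *Fbln1* over time in the libraries labelled *siOct4* was -0.0021 with plain totals (-0.0109 to 0.13), and *Mfap2* there was 0.0134 with totals without *Gm26917*. When each library was left out, *Eln* ranged from -0.17 to 0.89 in the interaction, *Fbn1* from -0.0288 to 0.29 and *Fbn2* from -0.0629 to 0.31 at day 3, and *Ltbp4* from -0.34 to 0.17 at day 6. The cause was not tested. Totals without *Gm26917* shifted the median over time in the libraries labelled *siOct4* by 0.13. Among single genes 109 calls were lost and 16 gained over all alternatives. Voom on the recovered reads called 158 genes at day 3 and 4238 at day 6. The 2 to 30 reads of *Eln* limit its precision (SE 0.46).

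Replicates with the same number correlated by -0.04 to 0.28 in their deviations from the group means, above 0 in 5 of 6 pairs of groups but not over 0.1 in all, so the numbers were not taken to pair the samples, and the labels do not say what a number marks. With the replicate block the 9 genes had 1 call at day 3, 8 at day 6, 6 over time in *siNcor1*, 7 in the libraries labelled *siOct4* and 8 in the interaction, and *Mfap5* was called lower at day 6 (adjusted p = 0.0272, where all alternatives ranged from 0.0165 to 0.392) and over time in *siNcor1* (0.0165, range 0.0165 to 0.324). Over all genes the block raised the calls in all 5 comparisons, from 148 to 222 at day 3, from 4251 to 4698 at day 6, from 4819 to 5218 over time in *siNcor1*, from 7312 to 7570 in the libraries labelled *siOct4* and from 2867 to 3395 for the interaction. It had 6 calls at day 3 and 38 at day 6 among the 51 other genes.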

Other observations

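The elastin receptor complex, which sits at the cell surface and binds elastin peptides, is made of a splice product of *Glb1* together with *Neu1* and *Ctsa*. *Neu1*, a sialidase, rose with time in both knockdowns, by 0.94 in *siNcor1* (SE 0.14, limma adjusted p = 0.000554) and likewise by 0.94 under the *siOct4* label (SE 0.14, limma adjusted p = 0.000188). *Ctsa*, the protective protein of the complex, rose by 0.54 in *siNcor1* (limma adjusted p = 0.00598) and fell by 0.41 in the libraries labelled *siOct4* (limma adjusted p = 0.015, and 0.00735 to 0.222 over the alternatives). The rise of *Ctsa* lost its call without *siNcor1* day 3 replicate 2 (adjusted p = 0.0773) or *siNcor1* day 6 replicate 1 (0.0612), and its fall without the library labelled *siOct4* day 3 replicate 1 (0.0522) or replicate 2 (0.0823) and with totals without *Gm26917* (0.0717). *Thsd4*, which promotes fibrillin microfibril assembly, rose in both, by 1.05 (limma adjusted p = 0.000429) and 0.79 (limma adjusted p = 0.000921). These 3 genes were chosen after their values were seen.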
